A study of Homo sapiens with 21 samples.

Results

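The transcripts described here are 10 genes that the transcription factor NF-kB is known to induce, NFKBIA, TNFAIP3, BIRC3, IER3, TNFAIP2, TNFSF15, RELB, ICAM1, CXCL8 and CXCL1. They were taken by gene symbol from the 58735 genes of the count table, so no measured value chose them, but the list was drawn up with earlier results of these data known. The cells carry the label HepG2, a line from a human liver tumour. They were kept for 24 h in serum-free DMEM with coumarin, a plant benzopyrone, at 0, 0.001, 0.01, 0.1, 1, 10 or 100 µM, with 3 libraries per dose and 21 in all. The 0 µM group received the same medium without coumarin, no agent that activates NF-kB was added to any group, and the series describes 3 biological replicates per group without saying what separated them. The p-values below therefore measure the spread between these libraries.

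NF-kB is a family of dimers of RELA, RELB, REL, NFKB1 and NFKB2 that is held in the cytoplasm by inhibitor proteins. Tumour necrosis factor, interleukin-1 and microbial products free the dimers, which then bind kappaB sites near their target genes. The targets include the pathway's own inhibitors, survival factors, chemokines and adhesion molecules, and in liver cells they form part of the inflammatory response.

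Libraries held 26984563 to 43375429 gene counts, and 16699 genes had enough counts to be tested. The common biological coefficient of variation between replicates, as edgeR estimates it, was 4.49%. Control replicates 2 and 3 had the largest TMM scaling factors of the 21 libraries, 1.04 and 1.043, while control replicate 1 was at 0.9999. For the listed target genes, results against 0 µM that end with control replicate 1 alone are named beside the result. For other genes of the pathway only the number of calls was kept with that control. Whether each call named for them holds there was not tested. Of 12 hepatocyte markers, ALB, TTR, APOC3 and FGB had 0 counts in every library and FOXA1 and CEBPA alone reached a mean of 1 CPM (counts scaled to library size with TMM factors), so the liver identity in the label does not show in these transcripts. Among the leukocyte markers, CD3E, CD8A and MS4A1 had 0 counts throughout, CSF1R alone reached 1 CPM, and the list summed to 3.45 to 4.34 CPM at 0 µM and 2.92 to 4.57 CPM at 100 µM. Of 6 epithelial markers, KRT7, KRT8 and KRT18 reached a mean of 1 CPM, while EPCAM, KRT19 and CDH1 did not. Of 8 fibroblast markers 5 did, with COL3A1 highest at a mean of 1210 CPM, while PDGFRA had 0 counts. The summed CPM of the epithelial list, which rests on these keratins, was 4180 to 4660 at 0 µM and 3310 to 3400 at 100 µM. That of the fibroblast list, mostly COL3A1, was 1290 to 1350 and 1070 to 1110. The part of these shifts in the results below was not tested. In bulk RNA, fewer cells of a type and less RNA per cell cannot be told apart.

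Promoter sequence was looked at because kappaB sites are what these genes are known to share. RefSeq promoters (GRCh38.p14) were matched for 8 of the 10 genes, and IER3 and RELB had no entry. The RefSeq start of TNFSF15 lies 13596 bases inside the gene as GENCODE 29 annotates it. The sequence before the annotated start of TNFSF15 was therefore not searched. For ICAM1 the RefSeq start lies 285 bases inside the annotated gene, and all of the sequence searched before it lies inside that gene. The kappaB consensus, searched on both strands in the bases before the start, was found in 4 of the 8 (NFKBIA, TNFAIP3, BIRC3 and CXCL1) and in 5.21% of all 35116 promoters. The sequence GGAATTTCC, searched on both strands, was found in 4 of the 8 (NFKBIA, CXCL1, CXCL8 and ICAM1) and in 0.413% of all promoters, and at NFKBIA and CXCL1 it overlaps the consensus. The ICAM1 match begins 186 bases before the RefSeq start, so it lies inside the annotated gene. A match is a description of the letters and not a measured binding site. The 8 genes were listed as known NF-kB targets, so shares above those of all promoters follow from that choice and carry no test. The 4 promoters with the consensus are shown because NFKBIA, TNFAIP3 and BIRC3 had counts in every library while CXCL1 was not detected. They are written 5′ to 3′ on the gene's strand with the kappaB matches in capitals: NFKBIA at chr14:35404750-35404849 (minus strand), BIRC3 at chr11:102317279-102317449 (plus strand), CXCL1 at chr4:73869293-73869392 (plus strand), and for TNFAIP3 the pair of sites alone, at chr6:137867192-137867213 (plus strand).
NFKBIA: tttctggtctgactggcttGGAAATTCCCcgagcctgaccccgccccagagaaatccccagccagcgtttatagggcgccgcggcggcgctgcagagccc
BIRC3: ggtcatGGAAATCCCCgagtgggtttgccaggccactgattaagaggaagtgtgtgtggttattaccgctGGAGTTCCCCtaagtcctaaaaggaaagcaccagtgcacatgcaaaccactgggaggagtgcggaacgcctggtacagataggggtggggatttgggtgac
CXCL1: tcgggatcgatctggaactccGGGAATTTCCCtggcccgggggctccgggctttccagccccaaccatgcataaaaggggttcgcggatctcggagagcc
TNFAIP3: GGAAAGTCCCgtGGAAATCCCC
The CXCL1 capitals are 2 overlapping matches on opposite strands, beginning 79 and 78 bases before the RefSeq start. The NFKBIA match begins 81 bases before the start, the BIRC3 matches 199 and 135 bases before it, and the TNFAIP3 matches 67 and 55 bases before it. GENCODE 29 places the start of TNFAIP3 71 bases upstream of the RefSeq start, so the TNFAIP3 pair lies inside the annotated transcript.

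In untreated cells the 10 transcripts spanned from abundant to undetected. On the length-scaled FPKM of the deposited table, IER3, an early response gene that regulates survival, was the highest at 95.2 ± 3.55 FPKM (SD, n = 3). NFKBIA, which encodes the inhibitor IkB-alpha, followed at 27.9 ± 0.78 FPKM and TNFAIP2, a TNF-induced gene, at 12.6 ± 0.264 FPKM. TNFAIP3, which encodes the ubiquitin-editing enzyme A20 that shuts the pathway off, had 6 ± 0.0471 FPKM, and BIRC3, the apoptosis inhibitor cIAP2, had 5.86 ± 0.302 FPKM. The libraries of this last pair overlapped, at 5.94 to 6.03 and 5.56 to 6.16 FPKM. TNFSF15, a TNF-family cytokine, had 2.05 ± 0.21 FPKM.

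Below 1 FPKM stood RELB, the NF-kB subunit of the alternative pathway, at 0.502 ± 0.0978 FPKM, the leukocyte adhesion molecule ICAM1 at 0.321 ± 0.0901 FPKM and the neutrophil-attracting chemokine CXCL8 at 0.171 ± 0.0237 FPKM. Apart from TNFAIP3 and BIRC3, neighbours in this order did not overlap between their 3 untreated libraries. CXCL1, another neutrophil-attracting chemokine, had 0 counts in all 21 libraries, which allows up to 3 counts, or 0.0692 to 0.111 CPM depending on the library. It was not tested, and the other 9 were. At 100 µM the order of means was the same, and the 3 libraries of TNFSF15 (0.53 to 0.592 FPKM) overlapped those of RELB (0.443 to 0.582 FPKM).

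**Figure D1:**
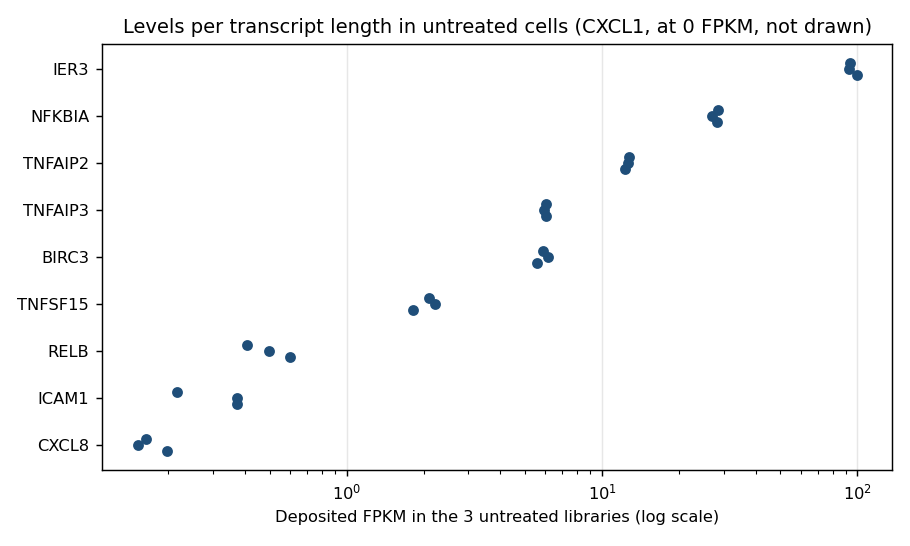
Deposited FPKM (log axis) of 9 genes in the 3 untreated libraries, 1 point per library. IER3 lies at 92.6 to 99.3 FPKM and CXCL8 at 0.152 to 0.197, and TNFAIP3 and BIRC3 overlap.

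At 100 µM against 0 µM, 6 of the 9 tested genes were lower and none was higher (quasi-likelihood test of edgeR, with p adjusted over all 16699 genes by Benjamini-Hochberg and a threshold of 0.05). Of all tested genes 27.3% changed at this dose, 12.9% lower and 14.4% higher. The 6 were TNFSF15, IER3, TNFAIP2, BIRC3, TNFAIP3 and NFKBIA. The median log2 change of the 9 was -0.54, against -0.00793 over all tested genes, and all 9 fitted values were below 0, that of RELB by less than 0.01.

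**Figure D2:**
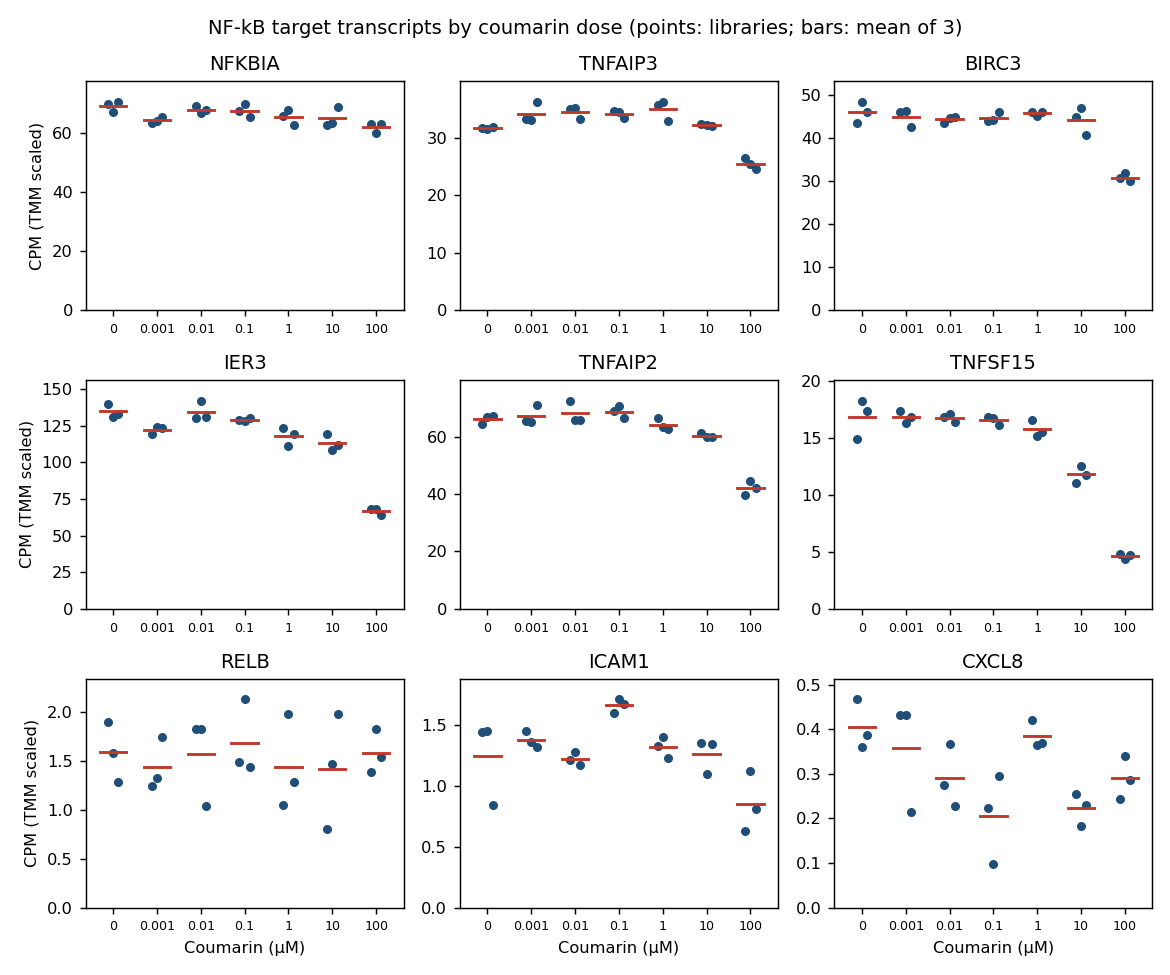
CPM of 9 genes (vertical axis, from 0) at each coumarin dose (µM), with points for the 3 libraries of a group and a bar for their mean. TNFSF15, IER3, TNFAIP2, BIRC3 and TNFAIP3 lie below every other library at 100 µM, while the RELB libraries at 100 µM (1.39 to 1.83 CPM) overlap the controls (1.29 to 1.9 CPM).

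Both inhibitors of the pathway among the 10 genes were lower. NFKBIA (ENSG00000100906, GRCh38 chromosome 14, 35401511 to 35404749, minus strand) had 69.7, 67 and 70.5 CPM in control replicates 1 to 3 and 63.1, 60 and 63.1 CPM at 100 µM. The groups did not overlap, although libraries at 0.001 to 10 µM reached down to 62.6 CPM. The log2 change was -0.15 (SE 0.0451; edgeR adjusted p = 0.00935), and the call ended without control replicate 3 (adjusted p = 0.053), without 100 µM replicate 2 (0.0504) and with control replicate 1 alone (0.0851), over a range of 0.00155 to 0.0851. Of all tested genes, 40.8% had 100 µM libraries that did not overlap the controls.

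TNFAIP3 (ENSG00000118503, chromosome 6, 137867188 to 137883312, plus strand) had 31.7, 31.4 and 31.8 CPM in the controls and 26.4, 25.4 and 24.6 CPM at 100 µM. All 18 libraries at the other doses were higher than the 3 at 100 µM. The fall was 0.31 on the log2 scale (log2 change -0.31, SE 0.0536; edgeR adjusted p = 1.8e-05), or 1.24-fold lower. An antisense gene on the opposite strand, AL357060.1, overlaps TNFAIP3 exons with 38 to 79 counts per library, and the strand setting of the counting is not given in the sources used here.

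Both survival genes among the 10, BIRC3 and IER3, were lower as well. BIRC3 (ENSG00000023445, chromosome 11, 102317450 to 102339403, plus strand) had 43.5, 48.4 and 46 CPM in the controls and 30.7, 31.8 and 29.9 CPM at 100 µM. It was 1.49-fold lower (log2 change -0.58, SE 0.0537; edgeR adjusted p = 4.02e-11). IER3 (ENSG00000137331, chromosome 6, 30743199 to 30744554, minus strand) had 140, 131 and 133 CPM in the controls and 67.9, 68.1 and 64.2 CPM at 100 µM. No 100 µM library of either gene reached the lowest value of the other 18.

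IER3 was 2.02-fold lower (log2 change -1.01, SE 0.0453; edgeR adjusted p = 1.3e-20), the 23rd smallest p among the tested genes. Its antisense partner IER3-AS1 had 1 to 10 counts per library, against 1949 to 4874 for IER3. Per transcript length IER3 went from 95.2 ± 3.55 to 47.4 ± 1.65 FPKM (SD, n = 3) and was still the highest of the 10.

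TNFAIP2 (ENSG00000185215, chromosome 14, 103123442 to 103137439, plus strand) had 64.4, 66.8 and 67.2 CPM in the controls and 39.5, 44.6 and 42 CPM at 100 µM. It was 1.58-fold lower (log2 change -0.66, SE 0.0496; edgeR adjusted p = 1.45e-13), with every 100 µM library below the other 18.

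The ligand TNFSF15 (ENSG00000181634, chromosome 9, 114784635 to 114806126, minus strand) had the largest fall of the 9. It had 14.9, 18.3 and 17.4 CPM in the controls and 4.84, 4.35 and 4.75 CPM at 100 µM, from 447 to 558 counts per library against 128 to 182. Control replicate 1 was the lowest of the 15 libraries at 0 to 1 µM, and the 100 µM libraries lay below all 18 others. TNFSF15 was 3.63-fold lower (log2 change -1.86, SE 0.084; edgeR adjusted p = 1.68e-20).

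The 3 genes with the fewest counts among those tested did not pass at 100 µM against 0 µM. ICAM1 (ENSG00000090339, chromosome 19, 10270835 to 10286615, plus strand) had 1.44, 1.45 and 0.839 CPM in the controls and 0.627, 1.12 and 0.809 CPM at 100 µM, on 18 to 44 counts. The groups overlapped through control replicate 3 and 100 µM replicate 2. The log2 change was -0.54 (95% interval -1.01 to -0.07; edgeR adjusted p = 0.0793), and it passed when control replicate 3 (adjusted p = 0.018) or 100 µM replicate 2 (0.0274) was left out.

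CXCL8 (ENSG00000169429, chromosome 4, 73740506 to 73743716, plus strand) had 14, 11 and 12 counts in the controls and 7, 10 and 11 counts at 100 µM. In CPM the controls lay at 0.361 to 0.467 and the 100 µM libraries at 0.244 to 0.34, without overlap, and libraries at 0.001 to 1 µM spanned 0.0985 to 0.432 CPM. The log2 change of CXCL8 was -0.48 with a 95% interval of -1.27 to 0.32 (edgeR adjusted p = 0.401), so at this depth a fall as large as that of IER3 was within the interval. RELB (ENSG00000104856, chromosome 19, 45001430 to 45038198, plus strand) had 1.9, 1.58 and 1.29 CPM in the controls and 1.39, 1.83 and 1.54 CPM at 100 µM. The groups lay over each other, and the log2 change was 0 with a 95% interval of -0.53 to 0.53 (edgeR adjusted p = 0.999).

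The libraries at 0.001 to 1 µM gave a second reference that uses no control library. Against these 12 libraries, 7 of the 9 genes were lower at 100 µM (16.5% of all tested genes were lower and 16.6% higher), with a median log2 change of -0.55. TNFSF15 had a log2 change of -1.83 (SE 0.0718; edgeR adjusted p = 1.11e-22), IER3 -0.91, TNFAIP2 -0.67, BIRC3 -0.55 and TNFAIP3 -0.44. ICAM1 passed here, at 0.627 to 1.12 CPM against 1.17 to 1.71 CPM with no overlap (log2 change -0.70, SE 0.185; edgeR adjusted p = 0.00265). Of all tested genes, 21.3% showed no overlap in this comparison. NFKBIA was at -0.09 (edgeR adjusted p = 0.0434), a call that ended in 9 of 24 alternatives, 7 of them single libraries left out (adjusted p 0.0279 to 0.261 over the alternatives). The single libraries were replicate 3 at 0.001 µM, replicate 1 at 0.01 µM, replicate 2 at 0.1 µM, replicate 2 at 1 µM and each of the 3 at 100 µM.

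**Figure D3:**
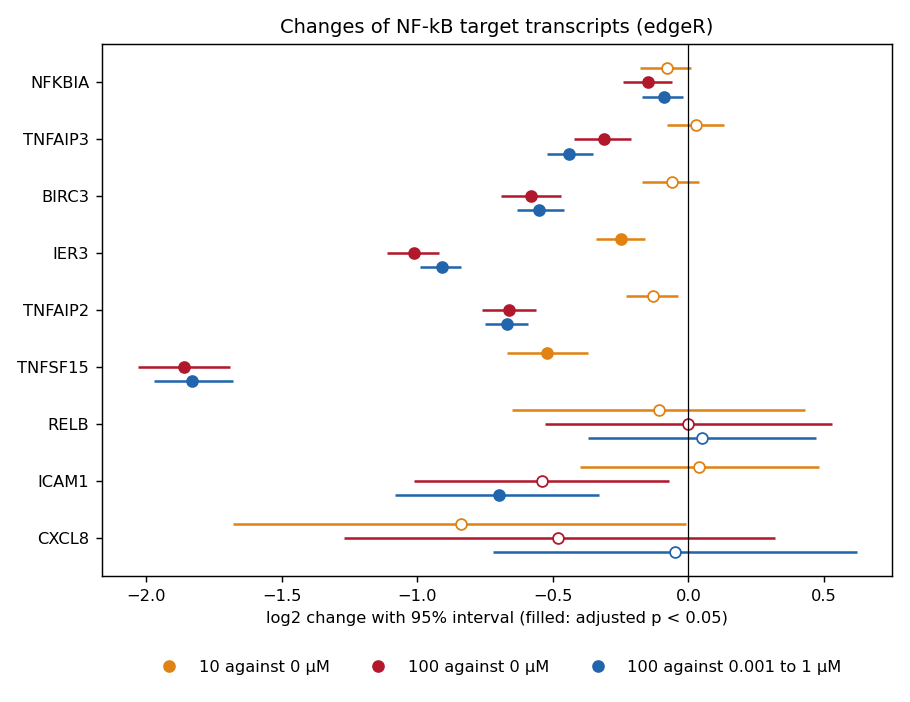
The edgeR log2 change of 9 genes (horizontal axis) with its 95% interval in 3 comparisons, filled where the adjusted p is under 0.05. TNFSF15 lies at -1.86 and -1.83 with 100 µM, and the intervals of RELB and CXCL8 cross 0 in both comparisons of 100 µM.

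For TNFSF15, IER3, TNFAIP2, BIRC3 and TNFAIP3 most of the fall lay between the 2 highest doses. Against 10 µM, 5 of the 9 genes were lower at 100 µM, while 10% of all tested genes were lower. TNFSF15 had a log2 change of -1.34 (SE 0.087; edgeR adjusted p = 2.46e-15), IER3 -0.76, TNFAIP2 -0.52, BIRC3 -0.52 and TNFAIP3 -0.34. NFKBIA was at -0.07 (edgeR adjusted p = 0.338), beside -0.08 at 10 µM against 0 µM (0.358). ICAM1 was at -0.58 (0.0749) and passed without 100 µM replicate 2. For TNFAIP3, BIRC3, IER3, TNFAIP2 and TNFSF15 the 3 libraries at 100 µM lay below all 18 others, a separation in either direction that 15.7% of all tested genes showed.

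At 10 µM against 0 µM, TNFSF15 and IER3 were lower, 2 of the 9. Of all tested genes 2.62% changed at this dose and 0.874% were lower. These comparisons use the same control libraries as those at 100 µM. TNFSF15 had 11.1, 12.6 and 11.8 CPM at 10 µM, all below the lowest of the 15 libraries at 0 to 1 µM, 14.9 CPM. Its log2 change was -0.52 (SE 0.0736; edgeR adjusted p = 4.32e-05), the 7th smallest p among the tested genes. The call ended with control replicate 1 alone (log2 change -0.34; adjusted p = 0.119), where the spread comes from the treated groups.

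IER3 had 119, 108 and 112 CPM at 10 µM, below the controls but overlapping the libraries at 0.001 to 1 µM, which reached down to 111 CPM. Its log2 change at 10 µM was -0.25 (SE 0.044; edgeR adjusted p = 0.000684). TNFAIP2 had 61.1, 59.9 and 60 CPM at 10 µM, below all 15 libraries at 0 to 1 µM (62.5 CPM or more), with a log2 change of -0.13 that missed the threshold (edgeR adjusted p = 0.136). As for TNFSF15, the 10 µM libraries lay outside the range of these 15, which held for 1.13% of all tested genes. Of all tested genes, 17.5% had 10 µM libraries that did not overlap the controls. With the 12 libraries at 0.001 to 1 µM as reference, a comparison chosen after seeing the data, TNFSF15 (log2 change -0.485; edgeR adjusted p = 1.12e-06), IER3 (-0.15; 0.012) and TNFAIP2 (-0.15; 0.0233) were lower at 10 µM. CXCL8 was at -0.84 against 0 µM on 5 to 10 counts, with a 95% interval of -1.68 to -0.01 (edgeR adjusted p = 0.305).

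At 1 µM IER3 alone was called, with 0.431% of all tested genes lower and 2.01% changed. It had a mean of 118 ± 6.14 CPM against 135 ± 4.72 CPM (SD, n = 3) and a log2 change of -0.19 (SE 0.0439; edgeR adjusted p = 0.0118). That call ended without control replicate 3, without 1 µM replicate 2 and with control replicate 1 alone. At 0.001, 0.01 and 0.1 µM none of the 9 was called by edgeR, where 1.53%, 5.86% and 6.45% of all tested genes changed. At an unadjusted p under 0.05 these doses had 3, 1 and 2 of the 9, with TNFAIP3 higher at each. NFKBIA and IER3 were lower at 0.001 µM, and CXCL8 at 0.1 µM. Many genes passed that threshold. TNFAIP3 ranked 1758 among all tested genes at 0.001 µM (edgeR unadjusted p = 0.0398) and 3040 at 0.1 µM (0.0405). Of the 9 at these doses, IER3 at 0.001 µM had the smallest adjusted p (log2 change -0.15, edgeR adjusted p = 0.0854). DESeq2 and upper-quartile scaling each called IER3 lower at that dose.

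Below 100 µM the TNFAIP3 means lay above the untreated mean. Its mean was 108% to 110% of the untreated mean at 0.001 to 1 µM, and its log2 changes of 0.11 to 0.14 did not pass at any of these doses (edgeR adjusted p 0.16 to 0.378). The 12 libraries at 0.001 to 1 µM held 32.9 to 36.2 CPM, above the controls at 31.4 to 31.8 CPM, whose SD was 0.206 CPM (n = 3). Of all tested genes, 3.45% had these 12 libraries on 1 side of the 3 controls.

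**Figure D4:**
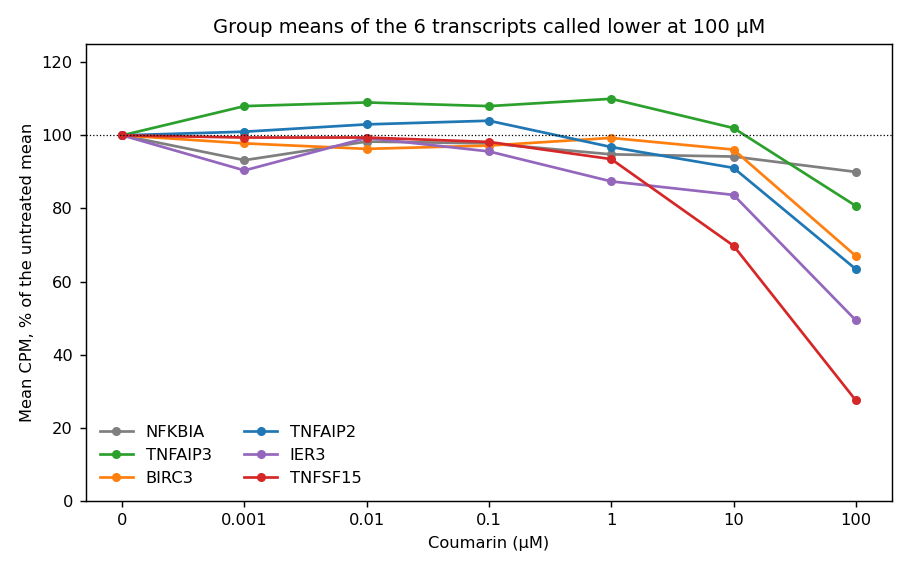
Mean CPM of 6 genes at each dose as a percent of the untreated mean (3 libraries per point, lines join the means). Between 1 and 10 µM TNFSF15 goes from 93.5% to 69.8%, and at 100 µM the means run from 27.5% for TNFSF15 to 90% for NFKBIA.

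The test of all 7 groups at once called 6 of the 9 genes, while 30% of all tested genes were called. They were TNFSF15 (edgeR adjusted p = 3.78e-20), IER3 (9.21e-20), TNFAIP2 (4.77e-14), BIRC3 (1.21e-10), TNFAIP3 (5.35e-08) and ICAM1 (0.0396), and NFKBIA had 0.084. The ICAM1 call ended when replicate 1 at 0.001 µM, any of the 3 replicates at 0.1 µM, or replicate 1 or 3 at 100 µM was left out, and also without a filter and with DESeq2. NFKBIA passed without 10 µM replicate 3 and with upper-quartile scaling. A slope on log10 dose over the 18 treated libraries passed the test and was below 0 for 5 of the 9, as it was for 11.5% of the 16522 genes tested for a slope. Per 10-fold of dose the log2 slope was -0.27 for TNFSF15 (SE 0.0576; edgeR adjusted p = 0.0035), -0.14 for IER3, -0.11 for TNFAIP2, -0.07 for BIRC3 (adjusted p = 0.024) and -0.07 for TNFAIP3. Over 0.001 to 10 µM alone TNFSF15 was the 1 gene of the 9 that was called.

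The genes that fell varied together over the 21 libraries. Pearson's r of log2 CPM between IER3, TNFSF15, TNFAIP2 and BIRC3 was 0.91 to 0.97, and TNFAIP3 had 0.853 to 0.916 with these. NFKBIA had 0.427 to 0.635 with the 5 genes, and ICAM1 had 0.661 to 0.729. RELB and CXCL8 had -0.199 to 0.125 with the same 5 genes. Counts per library were 22 to 86 for RELB, 3 to 14 for CXCL8 and 18 to 58 for ICAM1. These libraries share 7 doses, so the coefficients describe the same dose pattern and carry no test.

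Among the 13296 other genes with a mean of at least 1 CPM, those whose log2 CPM most followed IER3 over the 21 libraries were ELF3, an epithelial transcription factor (r = 0.98), ALDH3A1, an aldehyde dehydrogenase (0.979), GDPD5, a phosphodiesterase gene (0.978), C11orf86 (0.978) and ALDH3B1, another aldehyde dehydrogenase (0.977). ELF3 had 56.7 CPM at 0 µM and 30.1 CPM at 100 µM, and C11orf86 had 36.4 and 16.8 CPM. ALDH3A1 went from 46.8 to 14.4 CPM, GDPD5 from 28.7 to 12.7 CPM and ALDH3B1 from 274 to 165 CPM.

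Of 114 other genes of the pathway, listed by role, 80 had enough counts to be tested and 8 had 0 counts in every library. At 100 µM against 0 µM 19 of the 80 were lower (23.8%, against 12.9% of all tested genes), 8 were higher (10%, against 14.4%) and 53 did not pass, with a median log2 change of -0.03. With control replicate 1 alone 17 passed, 11 of them lower. At 10 µM none of the 80 passed. The counts by role at 100 µM that follow stand beside the same 12.9% lower and 14.4% higher of all tested genes. Of receptors 7.69% were lower and 15.4% higher, of adaptors and kinases 18.2% each way, and of inhibitors 16.7% each way.

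Among the ligands, 3 of 4 tested fell. TNFSF10, the death ligand TRAIL, had a log2 change of -1.25 (SE 0.289; edgeR adjusted p = 0.000926) on 10 to 41 counts per library. TNFSF9, the 4-1BB ligand, had 32.6 ± 0.23 CPM at 0 µM and 25.7 ± 1.2 CPM at 100 µM (SD, n = 3; adjusted p = 4e-06 by edgeR), and TNFSF12, the ligand TWEAK, had a log2 change of -0.42 (adjusted p = 0.0363). TNF, the classical activator of the pathway, had 1 to 9 counts per library and was not tested.

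Of 13 receptors, 2 rose and 1 fell. TNFRSF12A, the TWEAK receptor, rose by 0.25 on the log2 scale (edgeR adjusted p = 0.000405) and TNFRSF10A, a TRAIL receptor, rose by 0.21 (0.0107). TLR4, the endotoxin receptor, had a log2 change of -1.44 on 2 to 15 counts per library (edgeR adjusted p = 0.0373), and did not pass against 0.001 to 1 µM (0.289).

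The 22 adaptors and kinases split evenly, with 4 lower and 4 higher. RBCK1, a subunit of the linear ubiquitin ligase, rose by 0.50 (SE 0.0499; edgeR adjusted p = 3.02e-10), from 47.4 ± 1.15 to 66.8 ± 2.49 CPM (SD, n = 3). TICAM1, the adaptor TRIF, rose by 0.30 and IRAK1, a kinase of the interleukin-1 receptor, by 0.20. The TICAM1 difference was 0.06 against 0.001 to 1 µM (adjusted p = 0.312).

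The subunits themselves did not pass against 0 µM. RELA had 65.1 ± 4 and 66.5 ± 0.238 CPM (SD, n = 3) at 0 and 100 µM, a log2 change of 0.03 with a 95% interval of -0.08 to 0.13 (edgeR adjusted p = 0.725). NFKB1 was at -0.04 (95% interval -0.14 to 0.06), NFKB2 at 0.05 (-0.06 to 0.16) and REL at -0.03 (-0.20 to 0.14). Against 0.001 to 1 µM NFKB1 was lower by a log2 change of -0.18 (edgeR adjusted p = 0.000448). BCL3, an IkB-family coactivator listed with the subunits, fell from 17.9 ± 0.846 to 11.9 ± 0.285 CPM (SD, n = 3; log2 change -0.58, SE 0.0697; edgeR adjusted p = 1.85e-08).

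Of 12 further inhibitors, 2 rose and 2 fell. NFKBIB, the inhibitor IkB-beta, rose by 0.37 (edgeR adjusted p = 1.37e-05) and NFKBIE, IkB-epsilon, rose by 0.35 (0.0121), the opposite direction to NFKBIA. Against 0.001 to 1 µM the NFKBIE difference did not pass (edgeR adjusted p = 0.0714). TRAFD1, a negative regulator of innate signalling, had a log2 change of -0.24 (adjusted p = 2.72e-05).

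Of 24 other tested targets, 8 fell (33.3%) and none rose, with a median log2 change of -0.20. EFNA1, a TNF-induced ephrin, fell from 63.6 ± 2.9 to 46.2 ± 2.01 CPM (SD, n = 3; adjusted p = 2.12e-08 by edgeR). NUAK2, a kinase gene, had a log2 change of -0.28 (adjusted p = 0.00111) and CSF1, the macrophage growth factor, -0.35 (0.00661). Against 0.001 to 1 µM, 20 of the 80 pathway genes were lower and 13 higher, beside 16.5% and 16.6% of all tested genes.

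**Figure D5:**
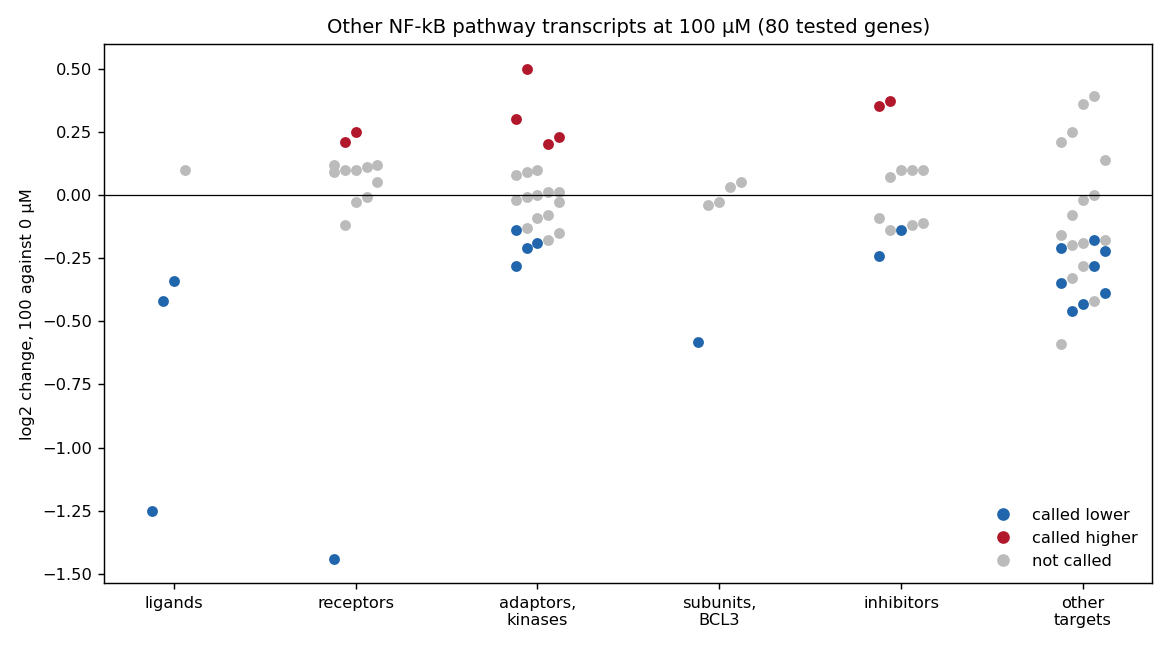
The edgeR log2 change of 80 tested pathway genes at 100 against 0 µM (vertical axis), grouped by role, 1 point per gene, coloured by whether the adjusted p is under 0.05. Ligands hold 3 lower genes of 4, other targets 8 lower of 24, and the 22 adaptors and kinases 4 in each direction.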

How the data were processed

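RNA of the 21 libraries was selected on poly(dT) beads, per the labels' protocols. Raw counts per gene were deposited by the authors as whole numbers, and a second table by the authors holds FPKM, scaled by gene length. HISAT2, DESeq2 and GRCh38 are named in the submitters' processing notes, while versions, counter and strand setting were not given in the sources used here. Each of the 58735 gene identifiers matched GENCODE 29.

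The count tests used edgeR 4.0.16 in R 4.3.3 (filterByExpr, TMM scaling, robust quasi-likelihood F test, a single fit of the 21 libraries that leaves 14 residual degrees of freedom). P-values were two-sided except for the 7 groups at once, and adjusted by Benjamini-Hochberg over 16699 genes (16522 for the slope). Standard errors and 95% intervals were taken from the F statistic. CPM use TMM-scaled library sizes. Means are given with the SD over 3 libraries, and floors of 3 counts cover counting error only, since PCR copies are not separate molecules. Scripts were first tested on simulated data.

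The members and lists were chosen with earlier results of these data known. Genes named from the pathway list are up to 3 per role with the smallest p at 100 µM, plus RELA, NFKB1, NFKB2, REL and TNF. The closing section names further pathway genes outside this rule, with their values in view. The 5 genes closest to IER3 are those with the highest Pearson r. Alternatives were upper-quartile or RLE scaling, all genes unfiltered, at least 1 CPM required in 3 libraries, fitting only the groups compared, control replicate 1 alone, a block for the replicate number, each library left out, DESeq2 1.42.0, limma 3.58.1 on log2 of FPKM plus 1 or 0.1, the dose rank, and the slope without 100 µM. The 12 libraries at 0.001 to 1 µM as reference for 10 µM were added after seeing the data.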

Additional observations from a re-analysis of the deposited data

How the results depend on the processing

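The calls of TNFSF15, IER3, TNFAIP2, BIRC3 and TNFAIP3 at 100 µM against 0 µM held in all 16 alternatives. The TNFSF15 log2 change was -0.96 with limma on FPKM plus 1, where the pseudocount is large beside its level. Of the 9 genes, 1 (IER3) was called at 0.001 µM with upper-quartile scaling and 1 with DESeq2. At 1 µM 0 were called with control replicate 1 alone, and 0 to 1 with a library left out. At 10 µM 1 was called with control replicate 1 alone. The slope over 0.001 to 10 µM had 1. Pathway genes called at 100 µM numbered 17 with control replicate 1 alone and 19 to 24 with a library left out. The fits with control replicate 1 alone, with a library left out and over 0.001 to 10 µM hold fewer libraries, and the cause of the shifts at 0.001 µM was not tested.

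Values of genes that did not pass turned sign as follows. At 10 µM against 0 µM, TNFAIP3 was -0.00473 with upper-quartile scaling and -0.097 against 0.001 to 1 µM, BIRC3 was 0.016 with control replicate 1 alone, and ICAM1 was -0.176 with control replicate 1 alone, -0.125 against 0.001 to 1 µM and -0.181 to 0.158 with a library left out. RELB at 100 µM against 0 µM was 0.0136 without a filter, 0.00242 and 0.00984 with limma on FPKM plus 1 and plus 0.1, and -0.131 to 0.148 with a library left out. With a library left out RELB was -0.491 to 0.142 at 10 µM, -0.0564 to 0.126 at 100 µM against 0.001 to 1 µM and -0.149 to 0.483 against 10 µM, and CXCL8 was -0.164 to 0.0432 at 100 µM against 0.001 to 1 µM. The RELB slope was -0.00419 over 0.001 to 10 µM, -0.000692 with limma on FPKM plus 0.1 and -0.00936 to 0.0261 with a library left out.

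Replicate numbers showed no pairing of the libraries. The mean of each dose group was first subtracted from log2 CPM, gene by gene. What remained correlated at -0.139 to 0.127 (mean -0.0036) over 63 pairs of same-numbered libraries from different doses. Different-numbered libraries had a mean of 0.0018. Of the 3 replicate numbers, 9 of 21 libraries were closest to their own. With the replicate number as a block the members called were 6 at 100 µM against 0 µM, 2 at 10 µM, 1 at 1 µM and 6 against 0.001 to 1 µM, where NFKBIA had an adjusted p of 0.0505. The BIRC3 slope lost its call in 5 of 28 alternatives. RELB, ICAM1 and CXCL8 had 3 to 86 counts per library, which limits what can be said of them.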

Other observations

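Several chemokine and cytokine targets of the pathway were at or near 0 in these libraries at every dose. CXCL5 and CXCL6, which like CXCL1 encode neutrophil-attracting chemokines, had 0 counts in all 21 libraries, IL6 had 0 to 6 counts per library and IL1B 0 to 3. CXCL2 had 10 to 49 counts and CXCL3 had 8 to 38, with log2 changes of 0.39 and 0.36 at 100 µM against 0 µM that did not pass (edgeR adjusted p = 0.37 and 0.42). CXCL3 was higher at 100 µM than at 0.001 to 1 µM (adjusted p = 0.00351), while CCL2, a monocyte-attracting chemokine, was lower in both comparisons (adjusted p = 0.0405 and 0.0174). Other cytokine targets had more counts, such as LIF with 300 to 522 per library and IL15 with 304 to 552. At 100 µM against 0 µM LIF was lower (edgeR adjusted p = 0.0474) and IL15 did not pass (0.979). Against 0.001 to 1 µM neither passed (0.437 and 0.275). The choice of these genes was made with their values in view.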
